A study of Saccharomyces cerevisiae with 6 samples.

Results

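Potassium starvation for 1 h was compared with no treatment in the budding yeast Saccharomyces cerevisiae, using the 2 potassium_starvation and the 2 control libraries out of 6 libraries in the series. The rule took every deposited feature with 10 or more reads in at least 2 of these 4 libraries, which kept 1378 of 7127 features. A feature is 1 entry of the authors' annotation, such as an open reading frame or a small RNA. All groups were BY4741, a laboratory haploid that carries deletions of HIS3, LEU2, MET17 and URA3. Cells at an optical density of about 1 in Synthetic Complete medium were either left to grow for a further hour or moved to potassium-free conditions for that hour. The third group, starved of nitrogen for 1 h, entered the fit only for its estimate of the spread. RNA came from whole cultures, so fewer cells and less RNA per cell cannot be told apart, and the labels give a batch number but no separate cultures, so the p-values speak for the spread among these libraries only.

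Potassium is the main cation of the yeast cytosol and sets cell turgor, membrane potential and internal pH. It enters through the Trk1 and Trk2 importers, whose activity is under the control of the phosphatase Ppz1 and its inhibitory subunits, and calcineurin acts on cation balance as well. Cells that stop growing for want of a nutrient generally lower the messages for ribosomes and raise those for stress protection and storage carbohydrate, and autophagy, in which the vacuole takes up and breaks down cytoplasm, is known from several kinds of starvation.

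The reads of many genes in these files lie under the reading frame annotated on the opposite strand. A feature was called paired when it lay opposite 1 annotated gene alone, a protein-coding one, over 100 bases or more and over 50% or more of its own length. Of 402 paired features 351 were kept, opposite 342 genes, and a gene name below stands for the reads under its paired feature unless its own identifier is mentioned. Among the 92 paired features called in this comparison, 91 held more reads per base than the identifier of the gene itself, with a median log2 ratio of 7.70. For 5 of the 92 the gene's own identifier was called too, in the same direction for NOP56 and NOP4 and in the opposite one for CTR1, REV1 and YIP3. The arrangement is shown for PRM6, the potassium transporter gene with the largest rise among paired genes. Its reads are listed for the plus-strand frame YML047W-A, and the 242 bases that this frame shares with PRM6 (chrXIII:180017-180258 of R64, minus strand) read as follows in the direction of PRM6.
PRM6: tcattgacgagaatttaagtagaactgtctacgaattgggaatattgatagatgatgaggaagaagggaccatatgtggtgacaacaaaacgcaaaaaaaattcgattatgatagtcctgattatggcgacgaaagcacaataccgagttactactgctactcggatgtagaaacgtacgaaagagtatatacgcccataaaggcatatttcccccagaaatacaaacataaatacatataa
Total reads ran from 359355 to 425919 over the 4 libraries, and 1133 to 1559 features per library held 10 or more reads. Ribosomal DNA features made up 22.3% and 28.3% of the control reads, 26.5% in potassium library 1 and 44.9% in potassium library 2, so library 2 was the shallowest for all other features. The share of paired features was 61.3% and 56.7% in the controls and 50.7% and 41.9% in potassium starvation. LEU2, MET17 and URA3 held 0 reads under their own identifiers in every library and HIS3 at most 6, but abundant genes also held few reads there, so these values are no check of the strain. Mating-type markers were equally uninformative, with 0 to 8 reads for the a-specific genes and up to 35 for the alpha-specific SAG1.

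By edgeR's quasi-likelihood test with Benjamini-Hochberg adjustment, 274 of 1378 features (19.9%) were called at an adjusted p below 0.05. Of these 151 were higher (11.0% of the features kept) and 123 lower (8.93%) in potassium starvation. A call was said to hold in both potassium libraries when each of them lay beyond both control libraries and at least 1 log2 unit from the control mean. This was so for 121 of the 151 rises and 96 of the 123 falls, together 217 features or 15.7% of those kept. Lying beyond both controls is common in itself, since 871 of the 1378 features (63.2%) did so, 426 (30.9%) above and 445 (32.3%) below. Among all features kept, called or not, 144 (10.4%) met the same condition upward and 126 (9.14%) downward. The median log2 fold change over all features kept was 0.005. Scaling over the paired features alone gave 157 rises (11.4%) and 105 falls (7.62%), 19.0% in all, and the fit with the replicate number as a block gave 157 and 131 (9.51%), 20.9% in all.

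The size of the change differed between the potassium libraries, by an amount that depended on the scaling. With TMM the median difference from the control mean over the 151 rises was 1.82 log2 units in library 1 and 1.65 in library 2, and 99 of the rises were larger in library 1. Over the 123 falls it was -1.72 and -1.30, with 84 deeper in library 1, and over the 58 paired falls -1.82 and -1.17, with 45 deeper in library 1. With scaling over paired features the same rises had medians of 2.01 and 1.54, with 129 of 151 larger in library 1, and the falls -1.49 and -1.30, with 68 of 123 deeper there. The direction with the wider gap between the libraries was thus down with TMM and up with scaling over paired features. Library 2 is also the one with the larger share of ribosomal DNA reads, and leaving those features out of the fit gave 153 rises and 131 falls. The part of the ribosomal DNA share in the unequal sizes was not tested.

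**Figure D1:**
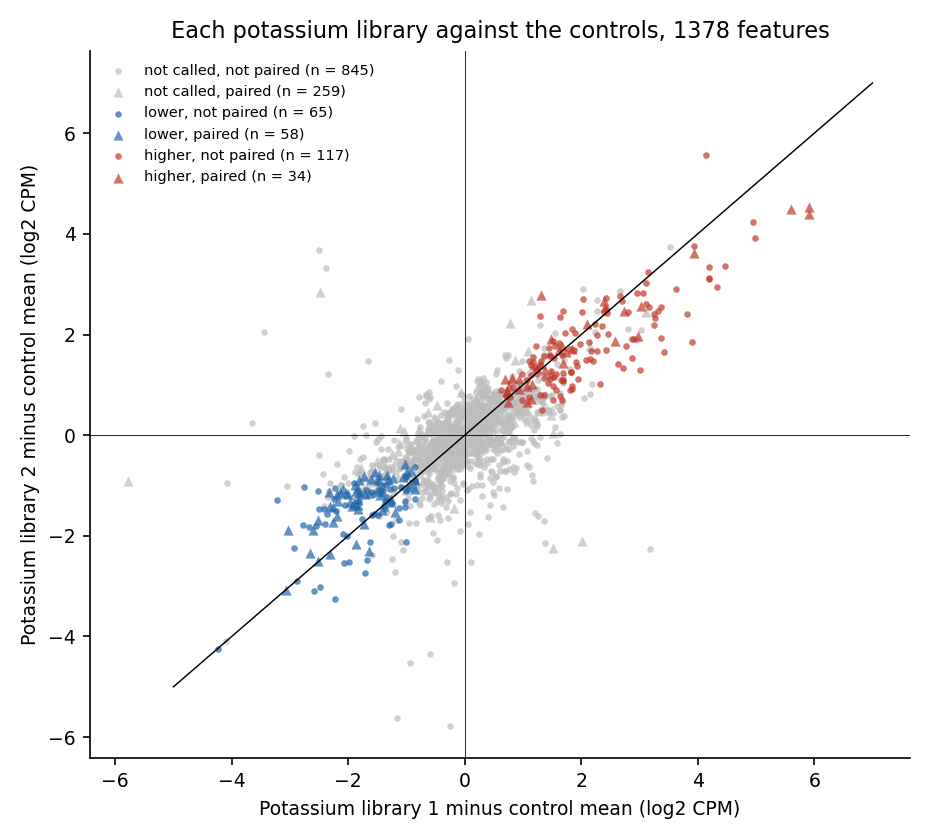
Difference of potassium library 1 (x axis) and potassium library 2 (y axis) from the mean of the 2 control libraries, both in log2 CPM, for the 1378 features kept; triangles are paired features, red and blue mark features called higher and lower by edgeR, and the line marks equal values. All 151 red points lie above 0 on both axes and all 123 blue points below 0 on both, while the widest departures from the line are grey.

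The libraries lay more than 3 log2 units apart for 18 features, none of them called. The quantifier divided reads between near-identical copies for 14 of the 18, among them the YRF1 helicase copies of the chromosome ends, the sugar transporter genes MPH2 and MPH3, and TEF1 and TEF2, which encode the same elongation factor. MPH2, picked for its gap, held 44 and 0 reads in the control libraries and 0 and 66 in the potassium libraries, so that replicates of 1 group disagreed completely. ITS2-2, a spacer of the ribosomal RNA precursor, held 16 and 15 reads in the controls and 0 and 57 in potassium. Values of such copies are uncertain in any direction.

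How a feature entered the table bears on the counts of calls. Some 85 features reached 10 reads only in the potassium libraries, of which 52 were called higher, and 73 reached it only in the controls, of which 16 were called lower. The 906 features with 10 reads in all 4 libraries passed whichever way they differed, and among them 81 were higher and 99 lower. Among paired features 325 of 351 had 10 reads in all 4 libraries, with 26 higher and 58 lower. Another 5 paired features, PRM6, GPH1, REG2, SPS19 and RNP1, reached 10 reads only in the potassium libraries. They could enter a count only by being high, and all 5 were called. Over all 351 paired features 34 rose and 58 fell, so that 26.2% were called, against 19.9% of all features kept.

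Genes of potassium and cation balance were the first group examined. PRM6, also known as KCH2, encodes a plasma membrane protein of potassium uptake. Its reads were 1 and 0 in the controls, 144 in potassium library 1 and 33 in library 2. Pooled by group and scaled for library size, the reads gave a ratio of 174 (95% interval from counting 30.8 to 6909), and the fitted log2 value was 7.07 (SE 0.98, adjusted p = 0.0059). Both potassium libraries were far above both controls, and the call was kept in all 16 alternative fits.

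VHS3, an inhibitory subunit of the phosphatase Ppz1, was read through 2 frames on the opposite strand at separate places in the gene. Under YOR053W (chrXV:427817-428158 of R64, plus strand) it held 78 and 56 reads in the controls and 264 and 149 in potassium, a rise of 1.58 log2 units (SE 0.22, adjusted p = 0.0050). Under YOR055W (chrXV:429478-429912, plus strand) the values were 57 and 34 against 153 and 86, a rise of 1.36 (SE 0.30, adjusted p = 0.020). The frames share the gene as their target and are not independent replicates. CMP2, a catalytic subunit of calcineurin, held 39 and 54 reads in the controls and 119 and 76 in potassium, with no overlap between the groups (log2 1.02, SE 0.27, adjusted p = 0.037). That rise did not reach the 1 log2 unit in library 2, where it was 0.98, and its call was lost in 11 of 16 alternatives.

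Altogether 4 of the 6 paired features on the potassium and cation list rose, but 2 of these 4 are frames of the 1 gene VHS3. The median of the 6 fitted log2 values was 1.19. Among all features kept 11.0% were called higher and the median was 0.005. PRM6 entered the table through the potassium libraries alone. Under their own identifiers 7 members were kept, with 0 called and a median of 0.01. The 2 others were NHX1, an endosomal exchanger of sodium or potassium for protons, at log2 0.09 (adjusted p = 0.88), and PMR1, the calcium and manganese pump of the Golgi, at 0.16 (adjusted p = 0.67). Without either control library, without potassium library 1, with library size alone or with limma on TPM the count of rises was 2. The list holds 37 genes, of which 5 had a paired feature. The importers themselves could not be followed: under its own identifier TRK1 held 6 and 4 reads in the controls and 11 and 2 in potassium, and TRK2 held 1, 1, 2 and 0, so neither passed the filter.

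Several large rises were in genes of stress protection and carbon use. GPH1, glycogen phosphorylase, held 8 and 9 reads in the control libraries and 731 and 190 in the potassium libraries. RGI1, named for its induction in respiratory growth, held 25 and 17 against 1313 and 410. For both genes the counts left a wide gap between the groups, and the rise was larger in library 1, by 1.38 log2 units for GPH1 and 1.12 for RGI1. GCY1, a glycerol dehydrogenase, was more even, with 32 and 26 reads in the controls and 562 and 309 in potassium. Its log2 fold change was 3.85 with an SE of 0.24, which gave the smallest adjusted p of the paired features (4.0e-04). GPH1 was the 1 storage carbohydrate gene with a paired feature, and of 5 such genes kept under their own identifiers 0 were higher and 2 lower. These were GLC3, the glycogen branching enzyme, from 64 and 51 reads to 12 and 15 (log2 -2.06), and GAC1, a phosphatase subunit of glycogen synthesis (log2 -1.34).

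GPD1, which makes glycerol 3-phosphate for glycerol synthesis, held 62 and 56 reads in the controls and 387 and 289 in potassium (log2 2.50, SE 0.25, adjusted p = 0.0023). GRE2, a methylglyoxal reductase on the same list of general stress genes, held 75 and 124 against 214 and 226 and did not pass (log2 1.15, SE 0.36, adjusted p = 0.058). The controls of GRE2 lay well apart from each other, and with the replicate number as a block its adjusted p was 0.0080. The general stress list thus had 3 of 4 paired features higher, against 11.0% of all features kept, and a median of 3.18, and the count was 3 or 4 in each alternative. Of the same list, 11 own identifiers were kept, with 1 higher and 2 lower. REG2, a regulatory subunit of the phosphatase Glc7 in glucose repression, went from 7 and 6 reads to 78 and 38 (log2 3.08, SE 0.39, adjusted p = 0.0040). SPS19, a peroxisomal enzyme of fatty acid breakdown, went from 4 and 3 to 46 and 15 (log2 3.0, SE 0.56, adjusted p = 0.011), and its call was lost in 3 alternatives.

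Members of the glycolysis list were not called. CDC19, pyruvate kinase, held 38715 and 32380 reads in the controls and 35016 and 36106 in potassium, overlapping values at log2 0.04 (SE 0.38, adjusted p = 0.96). GPM1 and PGK1, at log2 0.26 and 0.29, were not called either, so 0 of 3 members of the glycolysis list passed. With an SE near 0.4, changes of the size of those of the list's members would not have been detectable here.

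MET2, which makes O-acetylhomoserine for methionine synthesis, held 39 and 70 reads in the controls and 432 and 244 in potassium, and MET28, a cofactor of the activator Met4, held 89 and 90 against 662 and 274. Both rose, by 2.56 (SE 0.37, adjusted p = 0.0054) and 2.29 (SE 0.31, adjusted p = 0.0050). They were the only 2 sulfur genes with a paired feature, beside 11.0% of all features kept that were called higher. Of the same list 11 own identifiers were kept, with 2 higher, 1 lower and a median log2 of 0.26. ARO9, an aromatic aminotransferase, rose by 2.56 with even potassium libraries of 386 and 317 reads against 62 and 57. DAL7, malate synthase of allantoin use, rose by 1.75 (SE 0.28, adjusted p = 0.0068) from 40 and 32 reads to 125 and 115. It was 1 of 4 nitrogen catabolite genes to pass, against 11.0% of all features kept that were called higher. CAR2, ornithine transaminase, at 10 and 15 reads against 35 and 72, did not pass (adjusted p = 0.077). It passed with the replicate block (adjusted p = 0.013), in a fit of the 4 libraries only, with limma on TPM and with no filter.

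CTR1, the high-affinity copper importer, had the widest gap toward potassium library 2 of the 34 paired rises, 19 of which were larger in library 1 with TMM. Its reads were 67 and 62 in the controls and 196 and 375 in potassium, which is 1.302 log2 units above the control mean in library 1 and 2.79 in library 2 (fitted log2 2.24, SE 0.48, adjusted p = 0.018). Reads under the identifier of CTR1 itself went the other way, from 71 and 62 to 44 and 22 (log2 -1.06, adjusted p = 0.033). CCC2, the copper pump of the secretory pathway, had 2 paired frames, 1 lower (log2 -0.999, adjusted p = 0.046, and 0.087 with scaling over paired features) and 1 not called (-0.60). HSE1, a subunit of the complex that sorts ubiquitinated cargo at endosomes, rose from 104 and 78 reads to 286 and 185 (log2 1.35, SE 0.20, adjusted p = 0.0054) and was the 1 of 9 endosome and vacuole members called, a share near the 11.0% of all features kept that were higher. Its partner VPS27 had log2 0.70 (adjusted p = 0.12). Of the endosome and vacuole list 15 own identifiers were kept, with 1 higher, 2 lower and a median log2 of -0.67. The 2 autophagy members with a paired feature were not called: ATG16, of autophagosome formation, had log2 0.62 (SE 0.32, adjusted p = 0.21), and CUE5, a receptor for ubiquitinated aggregates, 0.65 (SE 0.21, adjusted p = 0.062, or 0.032 with scaling over paired features). All 4 of their potassium values lay above both controls, as did those of 426 of the 1378 features kept (30.9%). In potassium against control, reads were 42 and 41 against 25 and 29 for ATG16 and 324 and 269 against 204 and 174 for CUE5.

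The remaining large rises belonged to no common list. MPM1, a mitochondrial membrane protein, rose by 1.79 and kept its call in all alternatives. FMP40, a mitochondrial enzyme that attaches AMP to proteins, MTL1, a sensor of cell wall stress, and MNN4, which promotes mannosylphosphate addition to cell wall sugars, rose by 1.83, 1.85 and 1.37. RNP1, an RNA-binding protein, rose by 2.66 from 3 and 2 reads to 19 and 14 (SE 0.72, adjusted p = 0.038). It passed the read filter through the potassium libraries alone, so it could enter only by being high. ZIP2, a meiotic gene, was read under the annotated noncoding RNA RME3 on the opposite strand. Reads listed there went from 8 and 11 to 39 and 28 (log2 1.78, adjusted p = 0.018). Whether they belong to ZIP2 or to RME3 was not tested. Calls below 1 log2 unit on the fitted scale included APM2, SNX41 and IST1, of transport between endosomes, vacuole and Golgi, at 0.81, 0.92 and 0.70. These last 3 were picked after their values were seen, belong to none of the lists, and each lost its call in 9 to 12 of the 16 alternatives.

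**Figure D2:**
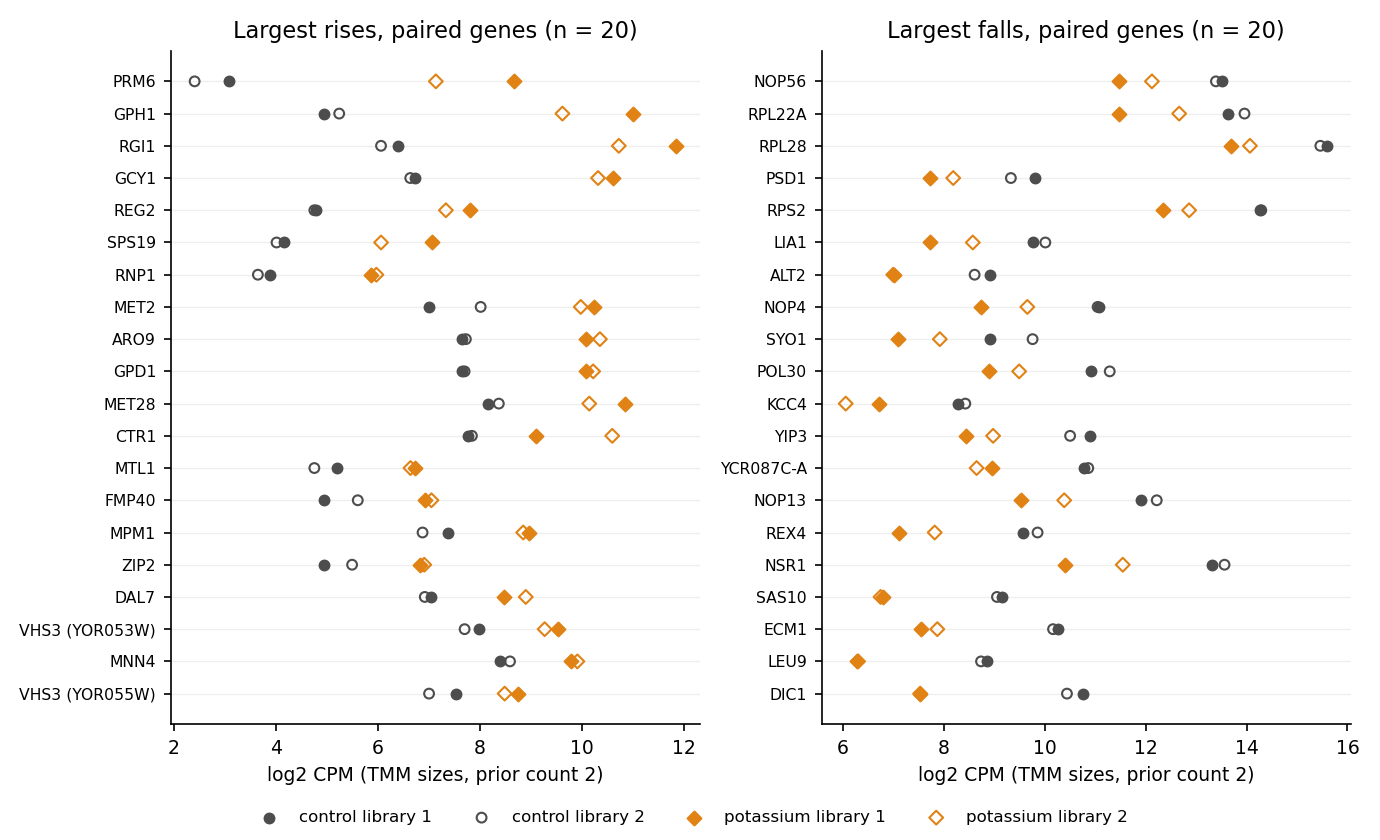
Level in log2 CPM (TMM sizes, prior count 2) of the 20 largest rises and 20 largest falls among paired features called under both scalings, with circles for the 2 control and diamonds for the 2 potassium libraries, filled for library 1 and open for library 2. The rule for these features required both potassium libraries beyond both controls, so circles and diamonds could not overlap. The gap runs from more than 4 log2 units for PRM6 and GPH1 to about 1 at the foot of the left panel.

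Assembly factors and ribosomal proteins supplied 27 of the 58 paired falls. Of 16 genes for ribosome assembly factors with a paired feature 14 fell, and of 16 ribosomal protein genes 13 fell. The 8.93% of all features kept that were called lower is the background to both counts. All 16 members of each list lay below both control libraries in both potassium libraries. So did 445 of the 1378 features kept (32.3%) and 138 of the 351 paired features. The median log2 fold change was -1.61 for assembly factors and -1.49 for ribosomal proteins, against -0.13 for all paired features and 0.005 for all features kept. Over the ribosomal protein list the median difference from controls was -1.85 in potassium library 1 and -1.14 in library 2, and 15 of 16 members were lower in library 1, with TMM.

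Among the assembly factors ECM1, of pre-ribosome export, fell most, from 390 and 317 reads to 66 and 56 (log2 -2.53, SE 0.23, adjusted p = 0.0017). SAS10, of the complex that processes the small subunit RNA, went from 178 and 146 to 38 and 25 (log2 -2.38, SE 0.35, adjusted p = 0.0054). REX4, a putative RNA exonuclease of ribosome assembly, went from 238 and 256 to 48 and 54 (log2 -2.26, SE 0.28, adjusted p = 0.0040). These 3 calls were kept in every alternative. NSR1, a nucleolar RNA-binding protein, was the most abundant of the group, with 3232 and 3353 reads against 487 and 730, and its call (log2 -2.37, SE 0.54, adjusted p = 0.023) was lost in 3 alternatives. NOP13, SYO1, NOP4, NOP56, REI1, PNO1, BUD23, RRP15, RRP17 and RRP14 made up the rest of the falls, from -2.06 to -1.06. Of the 2 members not called, RRP9, which binds the U3 small nucleolar RNA, had log2 -1.19 (adjusted p = 0.061, or 0.0091 with the replicate block). The other, MAK3 (-0.49), is an acetyltransferase that the name pattern of the list caught.

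The ribosomal protein falls were smaller and close to one another, from -1.65 for RPS2 to -1.32 for RPL10. RPL28 held 15641 and 12498 reads in the controls and 4786 and 4191 in potassium (log2 -1.63, SE 0.36, adjusted p = 0.020). The 3 members not called were RPL13B (-1.59, adjusted p = 0.061), RPL36B (-1.12, adjusted p = 0.081, or 0.049 with scaling over paired features) and RPL36A (-0.72, adjusted p = 0.16). Reads of RPL12A and RPL12B were divided between near-identical copies and are uncertain.

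The counts on both lists rested on all 4 libraries. Without control library 1 or 2 the ribosomal protein list kept 0 or 1 calls, with medians of -1.50 and -1.45, and without potassium library 1 it kept 11 with a median of -1.15. For assembly factors the counts were 5, 3 and 5 and the medians -1.81, -1.42 and -1.32. Without potassium library 2 there were 14 ribosomal protein and 15 assembly calls. Limma on the deposited TPM values called 9 ribosomal protein and 6 assembly members, and scaling by library size alone left 10 assembly calls. Of 19 assembly genes kept under their own identifiers, the strand with few reads, 7 were lower and 1 higher, with a median of -1.51. Of 8 ribosomal protein genes kept in that way 0 were called, with a median of -1.36. NOP56 is read on both strands, with 3707 and 2980 reads against 1024 and 1090 under its paired feature (log2 -1.62) and 262 and 180 against 54 and 74 under its own identifier (-1.73).

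Some other genes of protein synthesis also fell. On each of the RNA polymerase, tRNA synthetase and translation factor lists 2 of 3 paired features were lower, against 8.93% of all features kept. RPC19, a subunit shared by RNA polymerases I and III, and RPC53, a subunit of RNA polymerase III, fell by 1.27 and 1.23, and TFC1, of the factor that recruits RNA polymerase III, was not called (-0.35). GLN4 and MES1, glutaminyl- and methionyl-tRNA synthetases, fell by 1.12 and 0.96, and ILS1 was not called (-0.33). SSB1, a chaperone bound to ribosomes, went from 12572 and 10714 reads to 3498 and 4265 (log2 -1.53, SE 0.37, adjusted p = 0.028), and SUI3, a subunit of initiation factor eIF2, fell by 0.96, whereas SSZ1, another chaperone of the ribosome, was not called (-0.53, adjusted p = 0.22). LIA1, which hydroxylates the modified residue of eIF5A, fell by 1.72. On the RNA polymerase, tRNA synthetase and translation factor lists limma on TPM called 0, 0 and 1 members lower. Library size alone called 2, 0 and 1. Without control library 1 the medians were -1.33, -0.89 and -0.92, and without control library 2 -1.07, -0.89 and -0.99. Of own identifiers, 3 polymerase members were kept, with 2 higher, 1 lower and a median of 1.13. For synthetases 1 was kept and for translation factors 7, with 0 called and medians of -0.91 and -1.36. On the chaperone list SSB1 was the 1 of 8 paired features called, against 8.93% of all features kept that were lower. SSA1, at log2 0.23, was not called.

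DIC1 and LEU9 had the deepest falls among paired genes called lower, ahead of the assembly genes ECM1, SAS10, NSR1 and REX4. DIC1, the mitochondrial dicarboxylate carrier, held 549 and 384 reads in the controls and 65 and 44 in potassium (log2 -3.11, SE 0.28, adjusted p = 0.0017). LEU9, an isopropylmalate synthase of leucine synthesis, held 146 and 117 against 26 and 18 (log2 -2.59, SE 0.22, adjusted p = 0.0017). In both genes the potassium libraries matched closely, at -3.07 and -3.07 log2 units from the controls for DIC1 and -2.53 and -2.50 for LEU9. LEU9 was 1 of 5 amino acid synthesis members called, against 8.93% of all features kept that were lower. ARG5,6 was at 0.55 (adjusted p = 0.33) and TRP4 at -0.36 (adjusted p = 0.47). PSD1, which makes phosphatidylethanolamine in mitochondria, fell by 1.65, and MAE1, the mitochondrial malic enzyme, by 1.44. The other carriers on the list with DIC1, HEM25 and YMC1, were not called (0.58 and -0.49).

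POL30, the sliding clamp of DNA replication, fell from 610 and 692 reads to 171 and 175 (log2 -1.90, SE 0.26, adjusted p = 0.0051) and kept its call in every alternative. It was 1 of 2 falls among 6 replication and cell cycle members, against 8.93% of all features kept that were lower. The other fall was CDC21, thymidylate synthase, at -1.43 (adjusted p = 0.037), which did not pass with scaling over paired features (adjusted p = 0.066) and lost its call in 8 alternatives. KCC4, a kinase of the septin checkpoint, fell by 1.97. YIP3, of transport between ER and Golgi, fell by 2.01 as the 1 of 6 secretory members called, beside the same 8.93%. The identifier of YIP3 itself was higher, at 133 and 49 reads against 29 and 30 (log2 1.53, adjusted p = 0.049). YCR087C-A, at -2.02, and ALT2, an alanine aminotransferase homologue, at -1.80, complete the large falls among paired genes. The amino acid permease genes GNP1 and HIP1 were not called (log2 -0.82 and -0.81), but HIP1 passed with the replicate block (adjusted p = 0.086 without it and 0.026 with it), as did ARN2, a siderophore transporter on the metal list (log2 -0.83, adjusted p = 0.15 and 0.045). Of 4 cell wall members 0 were called, with GAS1, a glucan-modifying enzyme, at -1.10 (adjusted p = 0.060). On the phosphate list 0 genes had a paired feature.

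**Figure D3:**
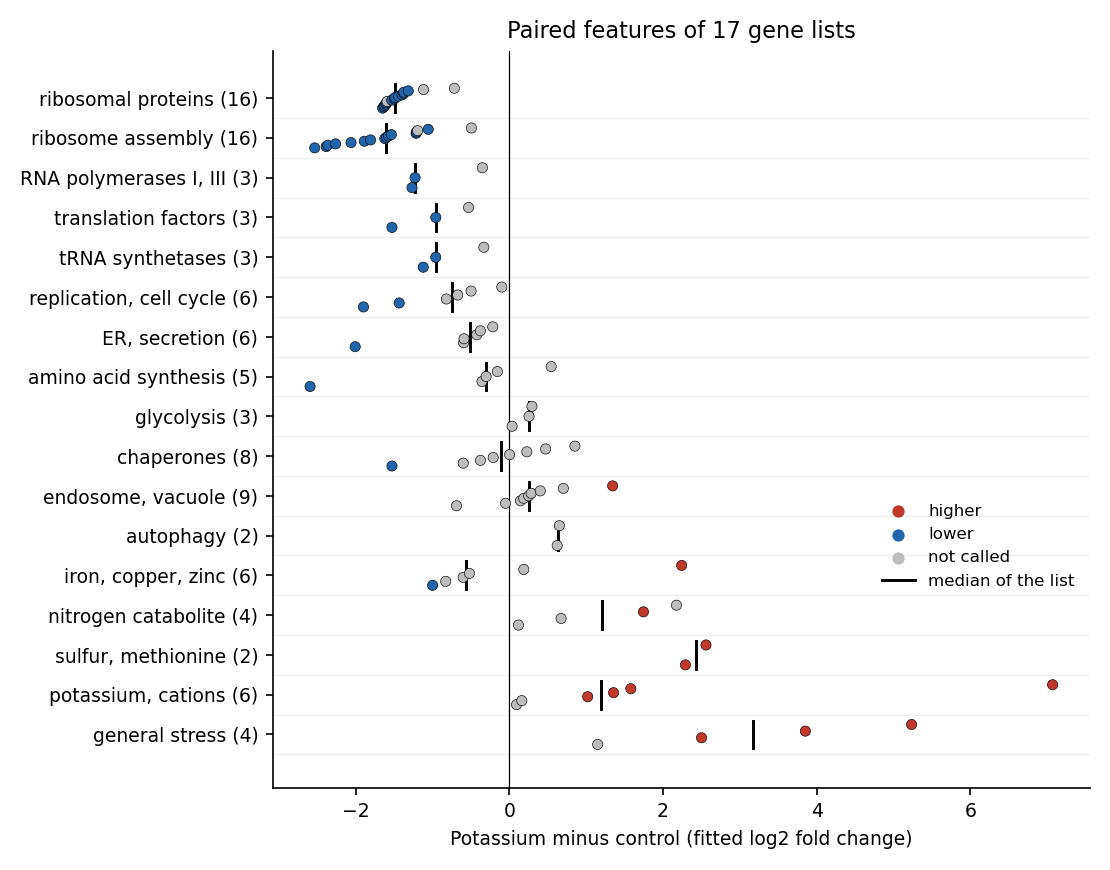
Fitted log2 fold change of potassium starvation against control for the paired features of 17 gene lists (number of features in brackets), 1 point per feature, with red for higher, blue for lower and grey for not called by edgeR and a bar at the list's median. The medians run from -1.61 for ribosome assembly to 3.18 for general stress, and lists such as glycolysis and autophagy hold grey points alone.

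Promoters were compared because the genes that moved fall into groups with textbook promoter elements. AGGGG, on either strand, is the core of the stress response element bound by Msn2 and Msn4, and GATGAG and AAATTT are the cores of the PAC and RRPE elements of ribosome assembly genes. The window was 250 bases before to 50 bases after the coding start of each gene in R64. AGGGG was found in 21.6% of all 6001 promoters, in 21.1% of the 342 paired genes kept and in 19 of the 33 genes that rose (57.6%), against 5 of the 58 that fell (8.62%). GATGAG was found in 20.4% of all promoters and in 27 of the 58 genes that fell (46.6%), against 5 of the 33 that rose (15.2%). For AAATTT the shares were 32.3% of all promoters, 60.3% of genes that fell and 24.2% of genes that rose.

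Within the falls the motifs divided by group. All 14 assembly genes that fell held GATGAG, and 13 of the 14 held AAATTT. Of the 13 ribosomal protein genes that fell 0 held GATGAG and 4 held AAATTT. Among members of these lists that were not called, RRP9 and RPL13B held GATGAG as well, and MAK3, RPL36A and RPL36B did not. Of the 37 paired genes with both motifs 23 fell (62.2%) and 1 rose, and of the 194 with neither 19 fell (9.79%) and 21 rose. CACGTG, the core site of Cbf1, was found in 3.03% of the genes that rose and 2.92% of all promoters. The shares were 9.09% and 7.98% for TGACTC, the core site of Gcn4, and 21.2% and 14.7% for GATAAG, bound by GATA factors. GPH1, GCY1 and PRM6 rose without AGGGG in the window. A match is a description of the letters and says nothing of binding.

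The promoters of the 3 largest rises with AGGGG are shown first, with AGGGG or its complement CCCCT in capitals. They are RGI1 (chrV:291816-292115, plus strand), REG2 (chrII:338150-338449, minus strand) and ARO9 (chrVIII:375459-375758, plus strand), all of R64, and the match of ARO9 lies after the coding start.
RGI1: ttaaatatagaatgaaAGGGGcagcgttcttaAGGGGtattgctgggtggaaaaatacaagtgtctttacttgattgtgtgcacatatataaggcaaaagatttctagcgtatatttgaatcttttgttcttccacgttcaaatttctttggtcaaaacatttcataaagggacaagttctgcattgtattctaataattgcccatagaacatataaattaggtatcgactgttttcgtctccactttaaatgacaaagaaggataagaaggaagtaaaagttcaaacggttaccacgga
REG2: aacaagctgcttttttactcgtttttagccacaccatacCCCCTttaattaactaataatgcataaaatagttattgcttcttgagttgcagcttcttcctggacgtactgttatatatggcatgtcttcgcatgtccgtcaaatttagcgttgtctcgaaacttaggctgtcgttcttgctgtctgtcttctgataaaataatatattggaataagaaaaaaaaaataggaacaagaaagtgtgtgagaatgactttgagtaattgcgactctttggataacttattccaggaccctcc
ARO9: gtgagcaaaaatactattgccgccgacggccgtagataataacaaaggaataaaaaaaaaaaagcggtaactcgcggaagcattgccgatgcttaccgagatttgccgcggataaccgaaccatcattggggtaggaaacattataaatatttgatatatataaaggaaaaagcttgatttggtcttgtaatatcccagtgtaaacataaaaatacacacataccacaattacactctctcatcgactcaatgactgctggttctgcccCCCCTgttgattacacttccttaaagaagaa
The promoters of 3 of the 4 assembly genes with the deepest falls follow, with GATGAG or its complement CTCATC in capitals. They are SAS10 (chrIV:182969-183268, minus strand), NSR1 (chrVII:807607-807906, minus strand) and REX4 (chrXV:181378-181677, minus strand), of R64. That of SAS10 holds 3 copies, of which 2 overlap.
SAS10: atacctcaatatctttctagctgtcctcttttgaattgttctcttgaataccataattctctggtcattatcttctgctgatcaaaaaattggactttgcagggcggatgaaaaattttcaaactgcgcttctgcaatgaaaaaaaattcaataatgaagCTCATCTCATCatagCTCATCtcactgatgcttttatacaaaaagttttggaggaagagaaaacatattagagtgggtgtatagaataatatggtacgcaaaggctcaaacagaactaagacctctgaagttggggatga
NSR1: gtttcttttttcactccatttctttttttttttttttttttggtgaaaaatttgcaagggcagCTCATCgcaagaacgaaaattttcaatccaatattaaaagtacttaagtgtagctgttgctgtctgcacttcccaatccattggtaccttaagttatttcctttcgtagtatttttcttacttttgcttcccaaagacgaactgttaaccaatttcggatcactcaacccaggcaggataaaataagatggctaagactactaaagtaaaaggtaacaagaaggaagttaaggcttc
REX4: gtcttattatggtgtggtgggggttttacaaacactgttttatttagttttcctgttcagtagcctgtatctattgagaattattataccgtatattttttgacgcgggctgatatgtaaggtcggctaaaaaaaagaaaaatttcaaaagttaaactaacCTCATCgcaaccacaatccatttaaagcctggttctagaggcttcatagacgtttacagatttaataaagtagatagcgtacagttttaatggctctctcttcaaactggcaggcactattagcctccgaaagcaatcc

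Features without a pair supplied 117 of the 151 rises and 65 of the 123 falls. They are named by their identifiers, and reads under an identifier are not taken as the level of that gene's message. Of these features 344 ended within 300 bases of the end of a gene on the opposite strand, or overlapped it, and 33 of them rose and 18 fell, so that 14.8% were called. Of the 668 with no such neighbour 84 rose and 47 fell (19.6%). Calls were kept in all 16 alternatives by 37 of the 274 features, 17 of them paired and 20 not paired.

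Among the 20, 16 rose and 4 fell, and these were picked for that property after the values were seen. KRE29 held 37 and 18 reads in the controls and 606 and 227 in potassium (log2 3.83, SE 0.39, adjusted p = 0.0023). Its frame ends 4 bases from the end of PHM8, which encodes a phosphatase of lysophosphatidic acid and nucleotides. Under its own identifier PHM8 held 57 and 62 reads in the controls and 37 and 43 in potassium, lower values where those of KRE29 were higher. The CTF19 frame overlaps the end of IRC15, a microtubule-associated protein, by 27 bases, and its reads went from 8 and 6 to 97 and 34 (log2 3.12). Reads under the IRC15 identifier went from 240 and 296 to 757 and 758 as well (log2 1.51, adjusted p = 0.010). Whether reads beside a gene's end belong to that gene was not tested.

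SET6 overlaps the end of ATG29, a subunit of the scaffold on which autophagosomes begin. The frame held 99 and 75 reads in the controls and 515 and 230 in potassium, with both potassium values above both controls (log2 2.03, SE 0.26, adjusted p = 0.0040). The identifier of ATG29 held 0 and 1 reads in the controls and 2 and 3 in potassium. The last 30 bases of ATG29 (chrXVI:237950-237979 of R64, plus strand) show the overlap, with the 24 bases shared with SET6 in capitals.
ATG29: gaagcgCTAATGGACAGATTGCAATTCTGA
ATG1, ATG8, ATG9 and ATG14 did not pass the filter under their own identifiers. ATG8 was at 0 in all 4 libraries, and the other 3 held 1 to 7 reads per library. Of the autophagy list 9 own identifiers were kept, with 0 higher, 1 lower and a median log2 of -0.36.

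The other rises kept throughout included MTH1, a corepressor of glucose transporter genes, whose reads went from 27 and 22 to 272 and 129, and MEP3, an ammonium permease, from 59 and 87 to 420 and 279. YCF1, a vacuolar glutathione conjugate pump, went from 20 and 11 to 440 and 138, BAP2, a branched-chain amino acid permease, from 14 and 16 to 403 and 103, and SRO9, an RNA-binding protein, from 6 and 1 to 162 and 66. YER066C-A, of which 138 bases lie opposite RGI1, went from 20 and 12 to 377 and 119, beside the rise of RGI1 through its own paired frame. The 4 falls kept throughout were YLR264C-A, from 881 and 904 reads to 203 and 216 (log2 -2.07, SE 0.26, adjusted p = 0.0040), SEC20, YLF2 and YGR161W-A.

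**Figure D4:**
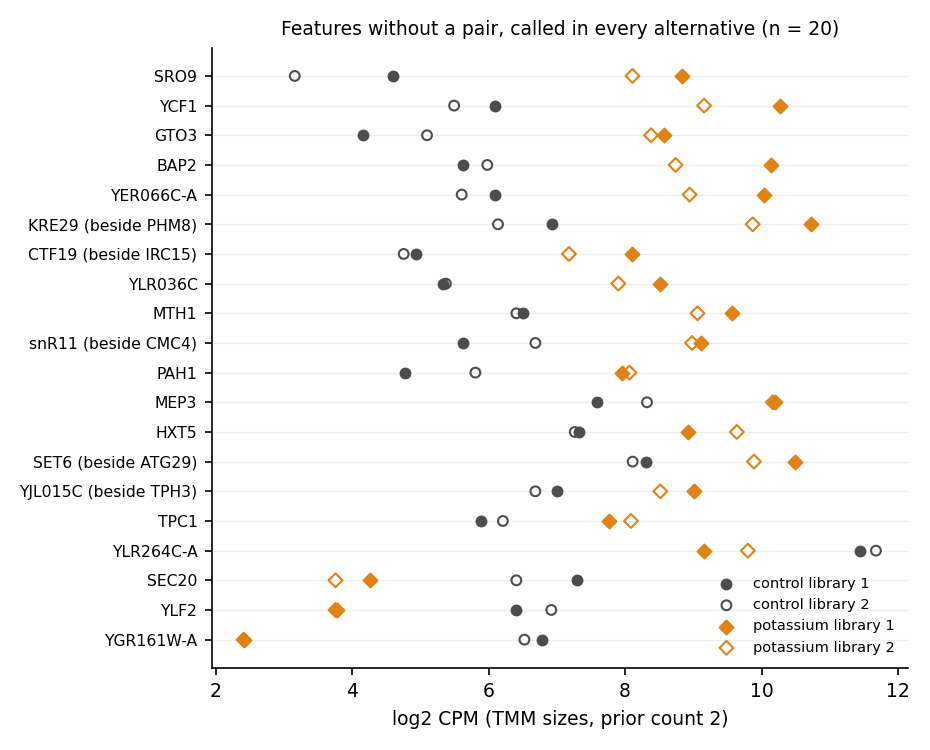
Level in log2 CPM (TMM sizes, prior count 2) of the 20 features without a pair that were called in every alternative, with circles for control and diamonds for potassium libraries, filled for library 1 and open for library 2; the name of a gene whose end lies within 300 bases on the opposite strand is given after the identifier. All 4 libraries separate by group for each feature, 16 with potassium to the right and 4 with potassium to the left.

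By the rule of the largest fitted change, the leading rises without a pair were ASP3-3, YFL002W-B, NPP1, ZTA1, SRO9, MDM32, ALE2 and RER2, most with hardly any control reads. ASP3-3, an asparaginase gene present in near-identical copies, was listed at 0 reads in both controls and 32 and 60 in potassium. Its copy ASP3-4 held 0 and 32 against 81 and 0, and since reads are divided between the copies no fold is given. NPP1 held 0 reads in both controls and 15 and 11 in potassium, at least 4.29-fold higher with the controls at a floor of 3 reads per library. ZTA1 had 1 control read and a ratio of 38.3 (95% counting interval 6.49 to 1552). Among the 8 leading falls YGR161W-A, a retrotransposon frame whose reads were divided between copies, held 33 and 24 reads in the controls and was listed at 0 in both potassium libraries. The others were YHR214W, YLF2, YNR014W, SEC20, WTM1, PRK1 and DRS1, with fitted values from -3.71 to -2.73. Under its own identifier PHO84, a phosphate transporter, held 11 and 2 reads in the controls and 8 and 6 in potassium and was not tested.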

How the data were processed

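For each library the authors deposited estimated counts, not always whole, and TPM values of 7127 features, in the column layout of salmon, per the file headers. STAR 2.7.3a, DESeq2 and build R64 appear in the submitters' processing notes. Neither the version nor the strand setting of the quantifier is given in the sources used here. A further deposited table holds a signal, counts divided by 1 size factor per library; 100% of its values came back as whole reads within 0.001 reads.

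Features were placed on R64, 6169 by annotation and 630 by searching for a reading frame of the deposited length. Counts were rounded and tested with edgeR 4.0.16 (R 4.3.3): TMM scaling, quasi-likelihood test, 1 fit of all 6 libraries (residual degrees of freedom 3), adjustment by Benjamini-Hochberg over 1378 features. CPM use TMM sizes. Intervals and floors cover counting error only. The test was checked on simulated data. Named genes were the 20 largest rises and 20 largest falls among paired features called under TMM and under scaling over paired features. The 8 largest changes each way without a pair were named by the same conditions. For all of these, both potassium libraries had to lie beyond both controls, with a mean of at least 10 CPM. All list members with a paired feature and 7 genes taken in any case were added. Promoters were read from the R64 genome, since no promoter table was used. The members and the 30 gene lists were chosen with earlier results of these data known. Further alternatives used DESeq2 1.42.0 and limma 3.58.1.

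Replicate numbers equal the batch numbers in the labels, so they pair the libraries. Deviations from the group means of same-numbered control and potassium libraries had a correlation of -0.02 across features, which are not independent replicates.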

Additional observations from a re-analysis of the deposited data

How the results depend on the processing

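No called value among the 154 named features changed direction under any of 16 alternatives. Of the named features not called, 16 changed sign in at least 1, with values from -0.51 to 0.17, among them CDC19, GPM1, NHX1, PMR1 and SSA1. The median of the chaperone list, -0.10, turned positive in 4 alternatives (0.05 to 0.10), and that of all features kept ran from -0.12 with no filter to 0.205 with library size alone. With 2 libraries a group, leaving out 1 moved the counts most. Without 1 library in turn, rises ran from 40 to 148 and falls from 27 to 138, paired rises from 11 to 29 and paired falls from 12 to 71. Rises that hold in both potassium libraries ran from 40 to 45 and falls from 27 to 30 without a control library, and without a potassium library they cannot be counted. The lone library left was assumed to vary like the other groups.

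Scaling by library size alone gave 95 rises and 53 falls, 35 of them paired falls, with 50 falls that hold. Limma on TPM, with a pseudocount of 1, gave 64 and 37, of which 20 and 23 were paired and 63 and 37 hold. With no filter 205 features fell, and 158 of these falls hold. The cause was not tested, except that leaving out a library leaves fewer samples. Scaling over paired features shifted the median of all features by 0.12 log2 units, library size alone by 0.20, TPM by 0.15 and no filter by -0.13.

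With the replicate block, which is the batch of the labels, 157 features rose and 131 fell (20.9% called), 37 and 61 of them paired and 121 and 98 holding. It changed no call among the named genes beyond those stated in the text. The count test on reads recovered from the deposited signal, chosen after seeing the data, called 274 features. Of 154 named features 83 were called, 21 of them in every alternative.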
